A study of Mus musculus with 12 samples.

Results

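The comparison was between 12 h and 24 h of mifepristone (MFP), an antagonist of the progesterone receptor, in the mouse mammary carcinoma C4-HD. Of the 12 arrays of the series, 4 entered it directly: the 2 whose source name is 24 h MFP and the 2 whose source name is 12 h MFP. It was made across 18193 genes, each represented by a probe set with a single annotated symbol. The liver transcripts, which stood high in both 24 h arrays, were set apart and are described on their own.

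C4-HD tumours were grown in BALB/c mice carrying a pellet of MPA (medroxyprogesterone acetate), a progestin on which this carcinoma depends. Once a tumour measured 50 mm2 the MPA pellet was surgically removed and an MFP pellet, giving 10 mg/kg/day, was placed under the skin, so that tumours at 12 h and at 24 h had both lost MPA and received MFP. The other groups, which served for the shared estimate of spread and for the steps before and after, were MPA, no MPA (labelled as 48 h after saline), MFP 6 h and MFP 48 h, with 2 arrays each. The times rest on the sample labels, since the series text leaves out the 6 h group and has all tumours excised after 2 days. The replicates are independent per that text, but nothing links an array to its animal, so every p-value measures the spread between these samples, which may be partly technical.

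Genes of cell division are switched on in waves. The genes that copy DNA are expressed from late G1 into S phase, largely through E2F factors, and the genes that build the spindle and divide the chromosomes are expressed later, in G2 and mitosis, through the MuvB complexes with B-MYB and FOXM1. The latter genes typically carry a short element called CHR (cell cycle genes homology region) close to the transcription start, with CCAAT boxes for the factor NF-Y upstream of it. In the progestin-dependent mammary gland and its carcinomas, the progesterone receptor drives cells into this cycle, and an antagonist such as MFP removes that drive.

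The first 5 promoters are of genes that fell from 12 h to 24 h. The other 3 are of genes of the replication wave that did not pass the test in this step. Only promoters that held the marked letters in the printed bases could be shown: CHR and CCAAT letters for the first 5, an E2F word for the other 3. The contrast between the printed sequences therefore follows from this choice. The sequences are from RefSeq with coordinates of GRCm38.p6, run 5′ to 3′ on the gene's strand from 100 bases before the start to 30 after it, and span 130 bases each. In the first 5, capitals mark the CHR letters (TTTGAA or TTCGAA, on either strand) and the CCAAT box (CCAAT, or ATTGG on the other strand). In Cdca8 the last CCAAT letters overlap the CHR letters.
Cdc20 (chr4:118437314-118437443, minus strand): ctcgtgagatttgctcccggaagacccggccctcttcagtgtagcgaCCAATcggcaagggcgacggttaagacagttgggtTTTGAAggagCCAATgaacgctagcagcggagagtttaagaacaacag
Cenpa (chr5:30666786-30666915, plus strand): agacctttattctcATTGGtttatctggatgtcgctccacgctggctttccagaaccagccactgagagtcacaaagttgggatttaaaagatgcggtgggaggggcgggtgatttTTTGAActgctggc
Cdca8 (chr4:124936888-124937017, minus strand): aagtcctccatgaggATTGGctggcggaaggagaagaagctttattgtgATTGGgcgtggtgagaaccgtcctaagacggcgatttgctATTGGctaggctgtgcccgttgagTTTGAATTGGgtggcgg
Aspm (chr1:139454673-139454802, plus strand): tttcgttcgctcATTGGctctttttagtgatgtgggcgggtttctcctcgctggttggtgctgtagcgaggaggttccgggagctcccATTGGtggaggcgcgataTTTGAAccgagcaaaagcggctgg
Hmmr (chr11:40733408-40733537, minus strand): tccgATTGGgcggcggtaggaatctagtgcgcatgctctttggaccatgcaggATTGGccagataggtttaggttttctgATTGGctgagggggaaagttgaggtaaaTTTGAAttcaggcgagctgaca
In the following 3, capitals mark only the E2F words (TTTGGCGC, TTTCCCGC, TTTGCCGC or TTTCGCGC, on either strand).
Mcm3 (chr1:20820283-20820412, minus strand): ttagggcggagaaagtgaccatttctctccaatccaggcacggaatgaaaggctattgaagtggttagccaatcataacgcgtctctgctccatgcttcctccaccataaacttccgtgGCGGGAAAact
Mcm6 (chr1:128359676-128359805, minus strand): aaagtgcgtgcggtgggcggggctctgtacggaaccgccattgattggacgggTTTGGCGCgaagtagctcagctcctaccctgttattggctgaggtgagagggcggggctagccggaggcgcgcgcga
Orc1 (chr4:108579354-108579483, plus strand): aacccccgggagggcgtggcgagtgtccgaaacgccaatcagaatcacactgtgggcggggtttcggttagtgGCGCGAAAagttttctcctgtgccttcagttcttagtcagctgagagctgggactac

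These letters were counted over the whole windows of the promoter table, from 250 bases before to 50 after the start. CHR letters were present in 34 of 43 mitosis genes with a window (79.1%), in 9 of 33 replication genes (27.3%), in 13 of 81 liver genes (16.0%) and in 17.5% of the 14452 tested genes with a window. Within 50 bases of the start they were present in 69.8% of the mitosis genes and in 4.62% of all tested genes. CHR and CCAAT letters occurred together in 72.1% of the mitosis genes and in 8.25% of all tested genes. The E2F words ran the other way: they were present in 45.5% of the replication genes, in 6.98% of the mitosis genes and in 3.81% of all tested genes. A match describes the sequence of the window and not a site in use.

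Each deposited value is a log2 ratio against the linear MPA mean, so levels above background are unknown and the tumour could not be checked against its markers as levels. The tumour blocks were formalin-fixed and paraffin-embedded, and the 3′ minus 5′ difference of the Gapdh control probe sets, which grows as RNA breaks, was 0.28 and 0.28 in the 12 h pair, against 0.42 and 0.55 in the 24 h pair. For Actb it was 0.34 and 0.36, against 0.35 and 0.50. The 2 arrays at 24 h also differed from each other: the SD of their difference over probe sets was 0.56, against 0.39 for the 12 h pair. The 24 h pair also differed in genes of other sources. The median over 23 exocrine pancreas genes was 6.35 in MFP 24 h replicate 2 against 0.72 in replicate 1. High pancreas medians were found at other times as well, at 5.59 and 3.72 in the 6 h arrays and 4.40 and 5.09 in the 48 h arrays, whereas the 12 h arrays had 0.12 and 0.87. Over 7 red blood cell genes the 24 h medians were 2.27 in replicate 2 against -0.13 in replicate 1, and over 15 B and plasma cell genes 2.22 against -0.11, with 1 of the 48 h arrays at 1.53 and 1.03 in these lists. The part of RNA quality and of these transcripts in the results below was not tested.

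From 12 h to 24 h, 311 genes rose and 74 fell (limma with Benjamini-Hochberg adjustment over 18193 genes, adjusted p under 0.05), which is 1.71% and 0.407% of the genes tested and 2.12% together. At an unadjusted p under 0.05 the shares were 7.61% and 6.81%. The arrays of both times did not overlap for 20.3% of genes in the upward and 26.8% in the downward direction, and the median over all genes was -0.05. In the step before, from 6 h to 12 h, 0 genes passed (3.39% upward and 3.51% downward at an unadjusted p under 0.05). In the step after, from 24 h to 48 h, 106 rose and 281 fell (2.13%). Of the 311 rises 79 were in the liver list, and of the 74 falls 13 were in the mitosis list. Leaving out replicate 1 at 12 h (MFP 12 h replicate 1) gave 153 changed genes, and leaving out its partner, replicate 2, gave 179. At 24 h the count was 680 when replicate 1 was dropped and 210 when replicate 2 was dropped. The lone array was then assumed to vary like the other groups. Most of the 385 genes did not pass in all 4 of these fits, and those that did were mostly rises. With all arrays quantile normalized, 1 gene rose and 1 fell.

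**Figure D1:**
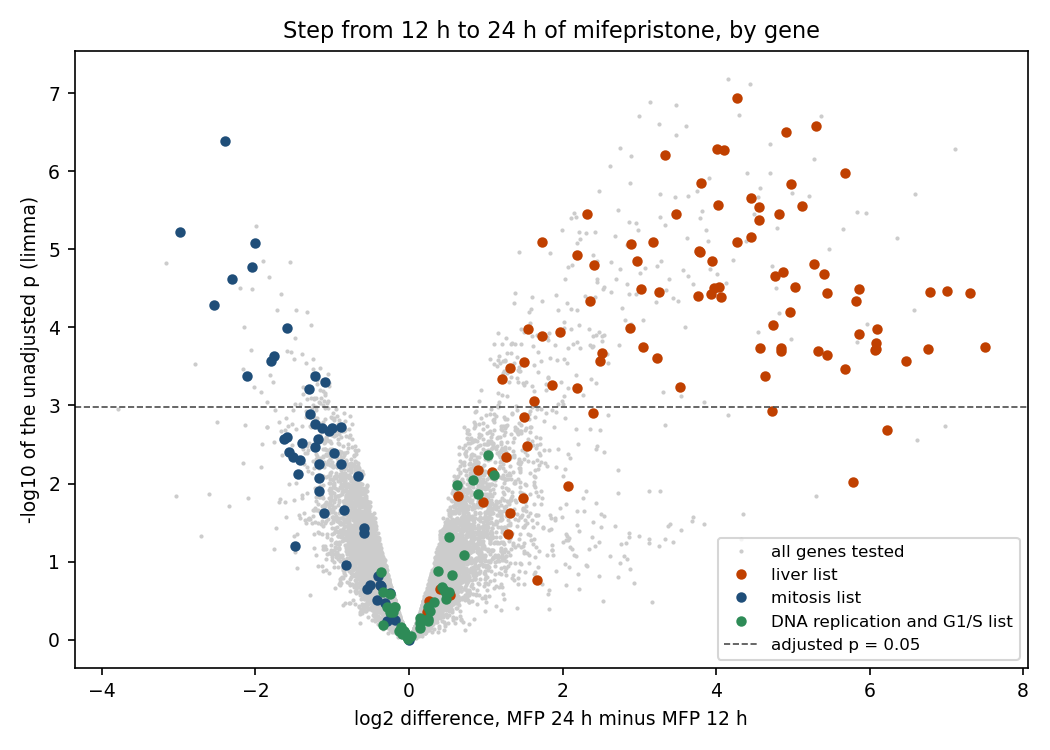
Log2 difference between MFP 24 h and MFP 12 h (x axis, 2 arrays per group) against -log10 of the unadjusted limma p (y axis) for 18193 genes, with the liver, mitosis and DNA replication lists in colour and a dashed line at an adjusted p of 0.05. The 52 mitosis genes all lie left of 0 and the 99 liver genes all lie right of it, while none of the 40 replication genes lies above the line.

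Mitotic genes were lower at 24 h than at 12 h. Of 52 measured genes of the mitosis list, 13 fell and 0 rose, against 0.407% and 1.71% of all genes. All 52 differences were below 0, 38 had an unadjusted p under 0.05 (6.81% of all genes, downward), and for 44 both arrays at 24 h lay below both at 12 h (26.8% of all genes). The list median was -1.17 on the log2 scale, against -0.05 over all genes. By array, the 12 h median over the list was -0.44 and -0.63 and the 24 h median -1.74 and -1.40. The 6 h arrays before them had 0.13 and -0.13, and the 48 h arrays after them had -1.07 and -1.32. Against MPA, 5 of the 52 genes were lower at 12 h and 43 at 24 h (adjusted p under 0.05; 2.32% and 4.07% of all genes). In the step from 6 h to 12 h, 16 of the 52 had an unadjusted p under 0.05 downward (3.51% of all genes). The list median of that step was -0.57, and 0 genes passed after adjustment. The list was thus falling before 12 h already. The larger part of the fall in its median lay between the 12 h and the 24 h arrays, which do not overlap in it. Whether fewer dividing cells or less RNA per cell lies behind such a difference cannot be told apart in bulk tissue. Without MFP 12 h replicate 1 the list had 4 falls, and dropping the second 12 h array left 6. Without either 24 h array it had 13 and 15.

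Kif2c, a kinesin that takes microtubules apart at the centromere, stood at -0.01 and -0.60 in the 12 h arrays and at -3.34 and -3.24 in the 24 h arrays. It fell by 2.98 on the log2 scale (SE 0.35, adjusted p = 0.00157), or 7.91-fold, and its 24 h arrays lay close together. Aurkb, the kinase of the chromosomal passenger complex, was already below MPA at 12 h (-1.21 and -1.0) and reached -3.62 and -3.39 at 24 h (-2.40 ± 0.21 SE, adjusted p = 0.000513). Its partners in that complex moved with it. Cdca8 (borealin) went from -0.76 and -0.82 to -2.99 and -2.69 (-2.05 ± 0.27, adjusted p = 0.00282), and Incenp, the scaffold, from -0.88 and -0.89 to -2.30 and -2.64 (-1.58 ± 0.26, adjusted p = 0.00958). Kif2c, Aurkb and Cdca8 stayed past the threshold without each array in turn. Incenp did so only without MFP 24 h replicate 1, and its adjusted p was at most 0.0916 otherwise.

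Spindle and kinetochore genes made up most of the others. Hmmr, a spindle assembly factor, went from -0.14 and 0.02 to -3.12 and -2.08 (-2.54 ± 0.38, adjusted p = 0.00557). Aspm, which organises spindle poles, went from 0.08 and -0.17 to -2.47 and -2.25 (-2.31 ± 0.32, adjusted p = 0.0035). Ckap2, a microtubule protein of the spindle, was the only one of the 13 that stood above MPA at 12 h in both arrays (0.65 and 0.63), and it was at -1.33 and -1.40 at 24 h (-2.01 ± 0.24, adjusted p = 0.00185). None of these 3 had overlapping arrays, and Ckap2 stayed past the threshold without each array in turn. Without MFP 12 h replicate 1 the adjusted p of Hmmr was 0.054 and that of Aspm 0.0521.

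The centromere histone gene Cenpa went from -0.54 and -0.80 to -2.54 and -3.02 (-2.11 ± 0.41, adjusted p = 0.025). The kinetochore genes Cenpf (-1.75 ± 0.32) and Cenpe (-1.30 ± 0.27) fell too. So did Bub1b of the spindle checkpoint (-1.23 ± 0.24), Cdc20, the activator of the anaphase-promoting complex (-1.80 ± 0.33), and Cdc25b, a phosphatase that admits cells to mitosis (-1.09 ± 0.22). These 6 were the less firm calls: each lost the threshold without at least 1 array, with highest adjusted p values of 0.192 for Cenpa, 0.146 for Cenpf, 0.211 for Cenpe, 0.219 for Bub1b, 0.15 for Cdc20 and 0.233 for Cdc25b. For Cdc20 and Cenpe every such fit missed it. The proliferation marker Mki67 did not pass (-0.51 and -1.02, then -2.83 and -1.53, -1.42 ± 0.40, adjusted p = 0.12), nor did Plk1 (-1.04 ± 0.25, adjusted p = 0.075), Top2a (-1.60 ± 0.40, adjusted p = 0.0837) or Ccnb2 (-1.57 ± 0.42, adjusted p = 0.106). For Mki67 and Top2a, MFP 24 h replicate 1 was the lower array by over 1 on the log2 scale.

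**Figure D2:**
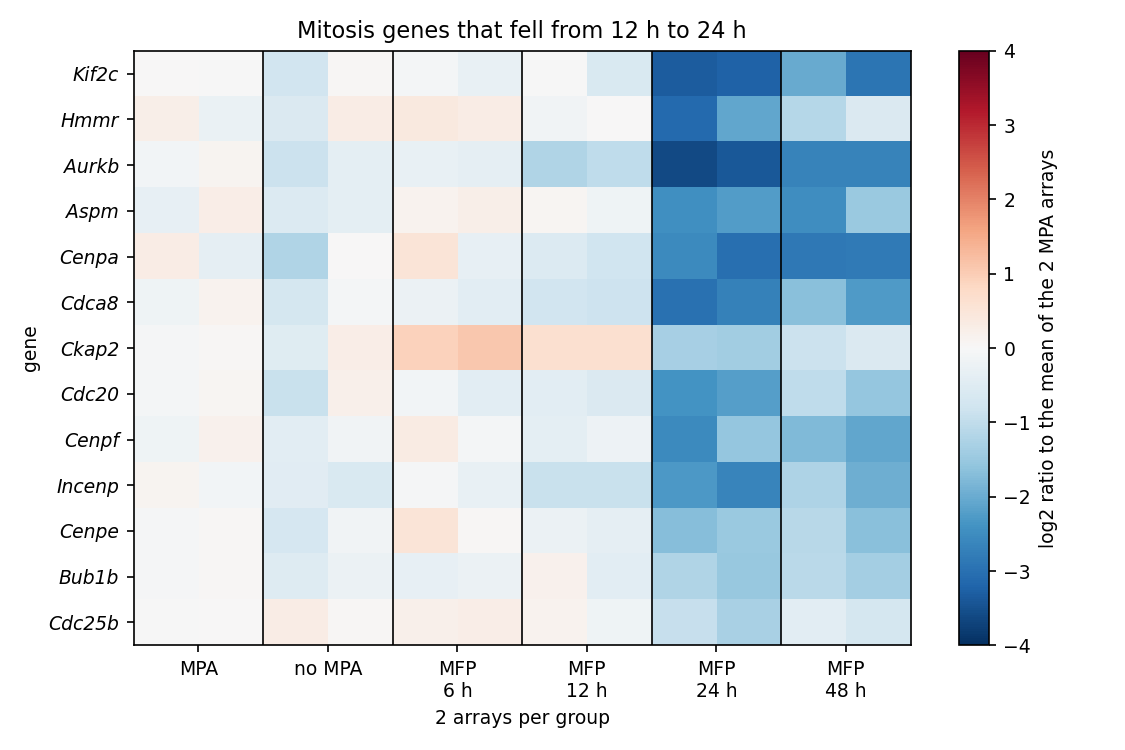
Log2 ratio against the MPA mean (colour, from -4 in blue to 4 in red) of the 13 mitosis genes that fell from 12 h to 24 h (rows), in the 2 arrays of each of the 6 groups (columns). Every row is lower in both 24 h arrays than in both 12 h arrays. Several rows, such as Aurkb, Incenp, Cdca8 and Cenpa, are below the MPA mean at 12 h already. Aurkb is at -3.62 and -3.39 at 24 h, and Hmmr is paler again at 48 h (-1.13 and -0.59).

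Genes of DNA replication and G1/S behaved otherwise in the same arrays. Of 40 measured members 0 fell and 0 rose (0.407% and 1.71% of all genes), with a median of 0.15 against -0.05 over all genes. At an unadjusted p under 0.05 there were 6 upward and 0 downward differences (7.61% and 6.81% of all genes). The list median stood at -0.57 and -0.77 in the 6 h arrays. It was -1.21 and -1.34 after 12 h, -1.2 and -1.09 after 24 h, and -0.79 and -0.98 after 48 h. Against MPA 22 of the 40 were lower at 12 h and 22 at 24 h (limma, adjusted p under 0.05, 2.32% and 4.07% of all genes). The list was thus low at 12 h already. In the step from 6 h to 12 h, 20 of the 40 had an unadjusted p under 0.05 downward (3.51% of all genes) with a median of -0.64, and 0 passed after adjustment.

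Cdc6, which loads the replicative helicase, was low at both times, with 12 h values of -3.38 and -3.99 and overlapping 24 h values of -4.44 and -3.2. Rrm2, a subunit of ribonucleotide reductase, was at -2.14 and -2.57, then at -2.8 and -1.42. The helicase subunit Mcm3 was at -2.80 and -2.38 and then at -2.63 and -1.51 (0.52 ± 0.42, adjusted p = 0.636). Of the list, Tk1 (thymidine kinase) had the smallest p: it was at -1.23 and -1.53 and then at -0.48 and -0.21 (1.03 ± 0.28, adjusted p = 0.111). Its arrays did not overlap, but the difference did not pass the test. The difference between the lists was not tested as such, and no mitosis gene had a 12 h to 24 h step that differed from its 6 h to 12 h step past the threshold.

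**Figure D3:**
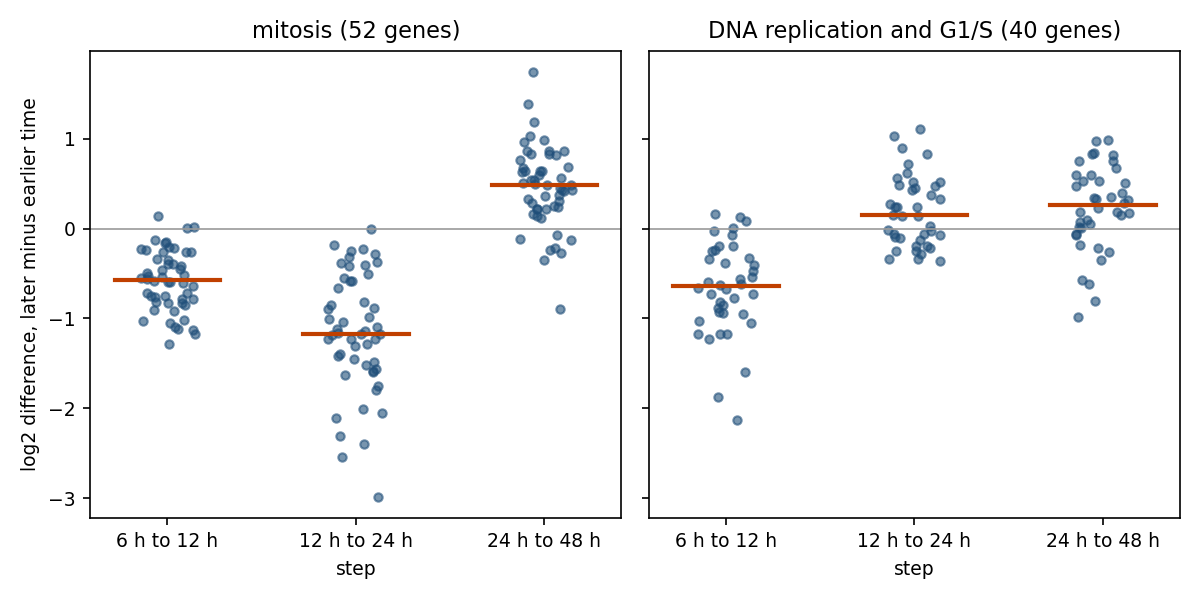
Log2 difference between successive MFP times (y axis) of each gene (points) of the mitosis list (left, 52 genes) and the DNA replication and G1/S list (right, 40 genes), with the list median as a bar. The mitosis median was -0.57, -1.17 and 0.48 in the 3 steps and the replication median was -0.64, 0.15 and 0.26.

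Among the 74 falls 55 belonged to no list, and several are also known from mitosis. The rule of the 10 largest falls named Cdkn3, a phosphatase that acts on cyclin-dependent kinases, which went from 0.43 and 0.15 to -3.09 and -1.89 (-2.79 ± 0.52, adjusted p = 0.0187), and the kinesin gene Kif18b (-2.15 ± 0.35, adjusted p = 0.00941). Chosen after their values were seen, Cep55, which completes the separation of daughter cells (-1.90 ± 0.25, adjusted p = 0.00262), Pbk, a mitotic kinase (-1.66 ± 0.24), Tacc3 of the spindle (-1.49 ± 0.27), the condensin subunit Ncaph (-1.16 ± 0.22) and Mastl, a kinase that holds off phosphatase activity in mitosis (-1.40 ± 0.25), fell as well. Cep55 kept its call without each array in turn, whereas Cdkn3 reached an adjusted p of 0.157, Kif18b of 0.0995, Pbk of 0.0598, Tacc3 of 0.13, Ncaph of 0.157 and Mastl of 0.134.

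The largest fall of all that passed was that of Mip, a membrane channel best known from the lens, from 0.05 and -0.17 to -2.73 and -3.72 (-3.16 ± 0.41, adjusted p = 0.00266), and it too held without each array in turn. P2rx7, an ATP-gated channel, went from 0.68 and 0.98 to -1.33 and -1.34 and was back at 0.90 and 0.09 at 48 h (-2.16 ± 0.41, adjusted p = 0.0212). It lost the threshold without any 1 of the 4 arrays (highest adjusted p = 0.18), and 1 of its 3 probe sets had the opposite sign. Of all 74 falls, 53 were still closer to the 24 h mean than to the 12 h mean at 48 h and 21 were closer to the 12 h mean.

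Hypoxia-responsive and glycolytic genes stood lower at 24 h, mostly short of the threshold. Of 23 measured members 1 fell and 0 rose (0.407% and 1.71% of all genes). Of the same 23, 10 had an unadjusted p under 0.05 downward (6.81% of all genes), 20 were below 0, and the list median was -0.63. By array, the list median went from -0.01 and -0.04 to -0.60 and -0.95. Higd1a, a mitochondrial protein induced by low oxygen, went from 0.67 and 0.39 to -0.97 and -1.60 (-1.82 ± 0.35, adjusted p = 0.0241). Adm (adrenomedullin) was at 0.12 and 0.41 and then at -1.92 and -2.56 (adjusted p = 0.0664), Ndrg1 was at 0.60 and 0.20 and then at -1.51 and -2.00 (adjusted p = 0.127), and Vegfa was at 0.08 and 0.24 and then at -1.0 and -0.99 (adjusted p = 0.206). Their arrays did not overlap, but none of these 3 passed.

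Other genes with ties to the low-oxygen response were among the falls. Hif3a, a relative of the hypoxia-inducible factors, went from -0.82 and -0.60 to -2.51 and -3.29 (-2.20 ± 0.31, adjusted p = 0.0042). Kdm3a, a histone demethylase induced by hypoxia and chosen after its values were seen, went from 1.06 and 0.68 to -0.46 and -0.74 (-1.47 ± 0.22, adjusted p = 0.0062). Both stayed low at 48 h, at -2.97 and -3.0 for Hif3a and -0.76 and -0.57 for Kdm3a. Without MFP 12 h replicate 2 the adjusted p of Hif3a was 0.0537, without MFP 12 h replicate 1 that of Kdm3a was 0.0827, and Higd1a passed only without MFP 24 h replicate 1 (highest adjusted p otherwise 0.202).

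Among steroid receptors the estrogen receptor gene Esr1 fell. It went from -0.29 and -0.31 to -1.35 and -1.76 (-1.26 ± 0.24, adjusted p = 0.0212), and it remained at -1.71 and -1.78 at 48 h. Without MFP 24 h replicate 2 its adjusted p was 0.186, without the 12 h arrays in turn 0.15 and 0.143. The progesterone receptor gene Pgr, the target of MFP, was at 1.46 and 1.40, then at 1.16 and 0.80, and did not pass (-0.44 ± 0.29, adjusted p = 0.53). Pgrmc1, a heme-binding membrane protein named for progesterone, rose from 0.10 and 0.33 to 1.27 and 1.38 (1.11 ± 0.19, adjusted p = 0.013, at most 0.136 with 1 array left out). At 48 h Pgrmc1 was back at -0.11 and 0.17 (-1.30 ± 0.19 from 24 h, limma adjusted p = 0.00691). The liver median also stood high in the 24 h arrays only. How much of the Pgrmc1 rise came with the liver transcripts was not tested. The fall of Esr1 and the rise of Pgrmc1 were the 2 calls from 12 h to 24 h among 15 measured genes of the steroid receptor list. Over all genes 0.407% fell and 1.71% rose in this step.

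Of 20 glucocorticoid-responsive genes 2 fell and 1 rose, against 0.407% and 1.71% of all genes. Rgs2, a brake on G protein signalling, was already at -1.51 and -1.68 at 12 h and went to -3.13 and -3.16 (-1.55 ± 0.20, adjusted p = 0.00263), in every fit with 1 array left out. Ddit4, an inhibitor of mTORC1 signalling that also responds to hypoxia, went from -0.51 and -0.87 to -1.96 and -2.39 (-1.48 ± 0.25, adjusted p = 0.0114, 0.127 without MFP 12 h replicate 1). Klf15 rose from 0.09 and -0.22 to 1.35 and 1.01 (1.25 ± 0.23, adjusted p = 0.0178, 0.18 without MFP 12 h replicate 2). How much of the Klf15 rise came with the liver transcripts was not tested. Fkbp5 stood at -1.25 and -1.47 and then at -1.09 and -1.05 (0.29 ± 0.26, limma adjusted p = 0.682). Of 22 progestin-responsive genes 0 changed. At an unadjusted p under 0.05, 1 of the 22 was upward and 5 were downward, against 7.61% and 6.81% of all genes. The RANKL gene Tnfsf11 (0.41 ± 0.28), Wnt4 (-1.10 ± 0.39, limma adjusted p = 0.225), Ccnd1 (0.33 ± 0.23) and Myc (0.25 ± 0.29) did not pass. Of 19 estrogen-responsive genes Igfbp4 rose and 0 fell. The apoptosis gene Bik, which encodes a BH3-only protein, was the single change among 26 genes of p53 targets and apoptosis (-1.93 ± 0.40, adjusted p = 0.035, at most 0.269 with 1 array left out), while Cdkn1a stood at 0.63 and 0.70 and then at 0.55 and 0.39.

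**Figure D4:**
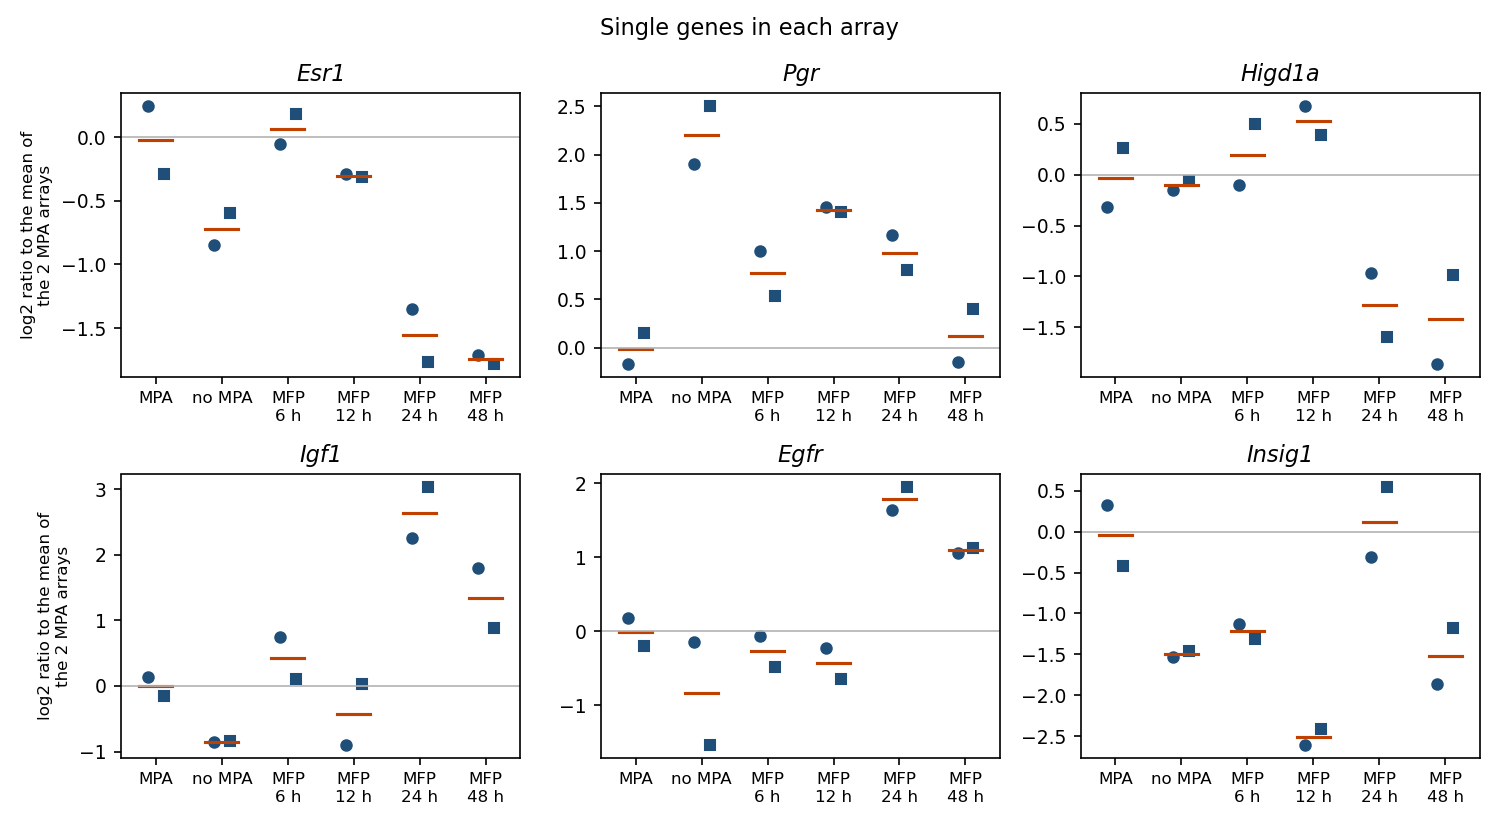
Log2 ratio against the MPA mean (y axis) of Esr1, Pgr, Higd1a, Igf1, Egfr and Insig1 in each array (circle, replicate 1; square, replicate 2), with group means as bars, in the 6 groups (x axis). Esr1 drops from -0.29 and -0.31 at 12 h to -1.35 and -1.76 at 24 h and stays there at 48 h, whereas Insig1 rises to -0.31 and 0.54 at 24 h and is back at -1.86 and -1.18 at 48 h.

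The liver transcripts were set apart because they stood high in both 24 h arrays, so the counts below describe them and are no test. Of 99 measured genes of 112 listed, 79 rose from 12 h to 24 h and 0 fell (1.71% and 0.407% of all genes). All 99 differences were above 0, from 0.23 for Proc to 7.5 for Pzp, with a median of 3.95. By array the 12 h median of the list was -0.66 and -0.72, the 24 h median 2.97 and 3.51, and the 48 h median -0.22 and -0.33. The MPA arrays had 0.52 and -0.81, the arrays without MPA -0.79 and -0.56, and the 6 h arrays 0.63 and -0.35. Both 24 h arrays thus stood above all 10 others, and 67 of the genes fell again between 24 h and 48 h (1.54% of all genes). With replicate 1 or 2 of MFP 12 h left out there were 40 and 42 rises, and with replicate 1 or 2 of MFP 24 h left out 75 and 48.

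Their 6 largest rises were those of secreted proteins and detoxifying enzymes of hepatocytes. Pzp, a protease inhibitor of plasma, went from -3.70 and -2.54 to 3.93 and 4.83 (7.5 ± 1.31, adjusted p = 0.0137). The cytochrome P450 gene Cyp2e1 went from -3.43 and -2.19 to 4.37 and 4.62 (7.30 ± 1.05, adjusted p = 0.00448). Cyp3a11, Ugt2b1, the fibrinogen gene Fga and the iron hormone gene Hamp rose by 6.47 to 7.01. Albumin itself, Alb, went from -3.22 and -2.41 to 3.33 and 3.51 and missed the threshold (adjusted p = 0.0742). Its MPA arrays stood apart from each other, at 0.98 and -4.88, and their spread entered the fit. Of these 6 rises, 0 held in every fit with 1 array left out; the highest adjusted p was 0.0647 for Cyp2e1 and 0.14 for Hamp, both without MFP 12 h replicate 1.

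Of 23 exocrine pancreas genes 0 passed, and 9 had an unadjusted p under 0.05 upward (7.61% of all genes). Of the 24 h pair replicate 2 was high in this list, as were both 6 h and both 48 h arrays, and from 6 h to 12 h 19 of the 23 had an unadjusted p under 0.05 downward (3.51% of all genes). Of 12 intestine genes 3 rose, against 1.71% of all genes. These were the apolipoprotein gene Apoa4 (2.59 ± 0.48), which mouse liver also expresses, the fatty acid binding protein gene Fabp2 (2.17 ± 0.24, adjusted p = 0.00128) and the aminopeptidase gene Anpep (1.21 ± 0.26). Only Fabp2 held without each array in turn (highest adjusted p 0.153 for Apoa4 and 0.262 for Anpep). The lists of skeletal muscle (23 genes, median 0.22), kidney (14 genes, -0.13), brain (12 genes, 0.11) and epidermis (14 genes, -0.32) had 0 calls, as had that of red blood cells.

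**Figure D5:**
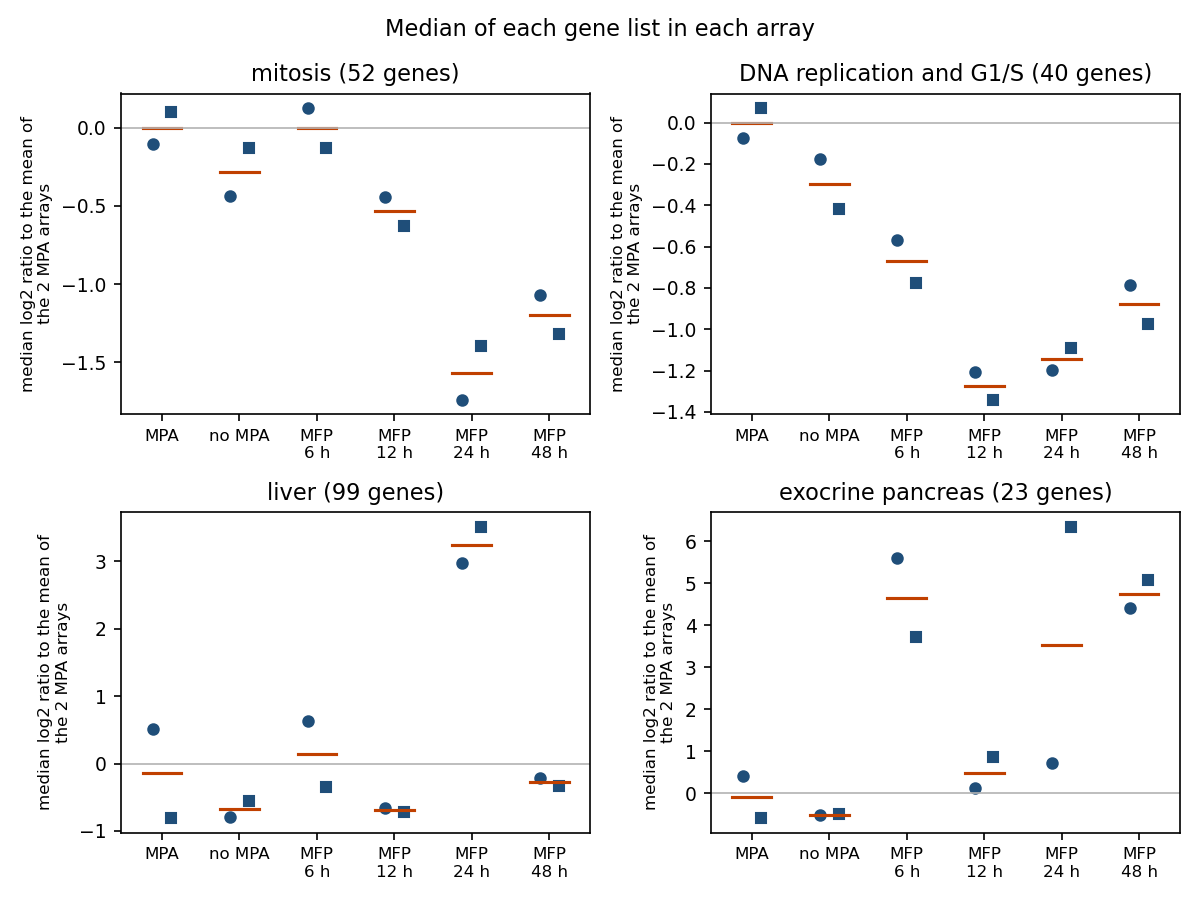
Median over the genes of each of 4 lists (y axis, log2 ratio against the MPA mean) in each array (circle, replicate 1; square, replicate 2), with group means as bars, in the 6 groups (x axis). The liver median is 2.97 and 3.51 in the 24 h arrays and at most 0.63 elsewhere. The exocrine pancreas median is 6.35 in 1 of the 24 h arrays and 3.72 to 5.59 in the 6 h and 48 h arrays. The mitosis median drops from 6 h to 12 h and further from 12 h to 24 h, while the replication median is lowest at 12 h.

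Outside the lists of other organs 229 genes rose (1.27% of 17996), and the largest of these are also genes of hepatocytes that the liver list did not hold. Upp2, a uridine phosphorylase, went from -2.18 and -1.89 to 4.58 and 5.58 (7.12 ± 0.64, adjusted p = 0.000513) and was at -1.33 and 0.59 at 48 h. The ribonuclease gene Ang (6.60 ± 0.69), the plasma inhibitor gene Mug1 (6.58 ± 1.01), the conjugating enzyme genes Ugt3a2 and Ugt2b5, the fatty acid transporter gene Slc27a2, the steroid enzyme gene Akr1c6, the acute phase gene Saa1, Cyp2c50 and the carboxylesterase gene Ces1d completed the 10 largest, with rises of 5.47 to 7.12. All 10 had arrays apart from those at 12 h. Mug1, Slc27a2 and Saa1 lost the threshold with an array left out (highest adjusted p 0.065, 0.0968 and 0.119). Of the 229, 80 had a correlation above 0.6 with the liver median over the 8 arrays outside the comparison, a description over arrays of 4 groups, and 185 were closer to the 12 h mean than to the 24 h mean at 48 h. How much of each rise came with the liver transcripts was not tested.

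The other 44 of the 229 were still closer to their 24 h mean at 48 h, where the liver median was -0.22 and -0.33. The following of them were chosen after their values were seen, apart from Igf1, Egfr and Igfbp4, which the naming rule holds. How much of each of these rises came with the liver transcripts was not tested, also where hepatocytes are not named. Vsig4, a complement receptor of resident macrophages, went from -0.80 and -0.79 to 2.39 and 2.01 and stood at 2.16 and 2.11 at 48 h (3.0 ± 0.24, adjusted p = 0.000442). Cd1d1, which presents lipids to NKT cells, went from -0.27 and -0.24 to 2.32 and 3.07 and was at 1.51 and 1.36 at 48 h (2.95 ± 0.34, adjusted p = 0.0014). The insulin-like growth factor gene Igf1 went from -0.90 and 0.04 to 2.26 and 3.03 and then stood at 1.79 and 0.88 (3.07 ± 0.41, adjusted p = 0.00283). All 4 of its probe sets rose. Its 24 h to 48 h step lay below its 12 h to 24 h step (-4.38, limma adjusted p = 0.00762). These 3 held without each array in turn, as did Aldh2, an aldehyde dehydrogenase (5.27 ± 0.49), and Selenop, a secreted selenium carrier (3.34 ± 0.38), both of which hepatocytes express strongly.

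Egfr, the receptor of EGF, went from -0.22 and -0.65 to 1.64 and 1.95 and was at 1.06 and 1.13 at 48 h (2.23 ± 0.39, adjusted p = 0.0137). Igfbp4, which binds insulin-like growth factors, went from 0.33 and 0.39 to 2.39 and 2.38 and was at 2.10 and 1.59 at 48 h (2.03 ± 0.43, adjusted p = 0.0388). Calcrl, the receptor of adrenomedullin in vessels, went from -0.79 and -0.84 to 0.53 and 1.72 (1.94 ± 0.42, adjusted p = 0.0461), Fermt3, an integrin activator of blood cells, from -0.62 and -0.61 to 0.78 and 1.04 (1.52 ± 0.30, adjusted p = 0.0285), and the matrix gene Mfap4 from 0.89 and 0.57 to 2.07 and 1.84 (1.22 ± 0.23, adjusted p = 0.0179). The last 3 were higher still at 48 h, at 1.79 and 2.17, 1.85 and 1.56, and 2.60 and 2.55. All 5 were less firm than Igf1, with highest adjusted p values, 1 array left out, of 0.143 for Egfr, 0.211 for Igfbp4, 0.312 for Calcrl, 0.2 for Fermt3 and 0.181 for Mfap4.

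Some sterol and fatty acid synthesis genes were low at 12 h, and some genes of this list were higher at 24 h. Against MPA, 8 of the 28 measured were lower at 12 h and 0 higher (limma, adjusted p under 0.05). Over all 18193 genes 422 were lower (2.32%) and 261 higher. The list median was -0.61 and -0.92 in the 12 h arrays and -0.65 and -0.25 in the 24 h arrays, which overlap. Of 28 measured members 3 rose and 0 fell (1.71% and 0.407% of all genes). At an unadjusted p under 0.05 there were 10 upward and 2 downward (7.61% and 6.81% of all genes). Insig1, which holds back the activation of SREBP, had gone from -1.13 and -1.31 at 6 h to -2.61 and -2.42 at 12 h, and then rose to -0.31 and 0.54 (2.63 ± 0.34, adjusted p = 0.00262). The desaturase gene Fads2 went from -0.20 and -0.74 to 2.09 and 1.91 (2.47 ± 0.25, adjusted p = 0.000977) and Idi1 of the isoprenoid branch from -4.72 and -3.39 to -2.45 and -1.67 (1.99 ± 0.43, adjusted p = 0.0441). Insig1 and Fads2 fell again by 48 h (adjusted p = 0.0383 and 0.000862), while Idi1 stood at -3.70 and -3.27 there (adjusted p = 0.157). With 1 array left out, Fads2 kept this fall, whereas Insig1 did so in 1 of 4 fits (highest adjusted p = 0.194). For all 3 the step differed from the step before (adjusted p = 0.0245, 0.0191 and 0.0343), a test in which a low 12 h value enters both steps. These 3 calls were all lost without either 12 h array (adjusted p from 0.189 to 0.368) and with the liver median as a covariate (adjusted p from 0.926 to 0.974). Insig1 and Fads2 kept their rise in every fit with 1 array left out, whereas the adjusted p of Idi1 was 0.273 with MFP 12 h replicate 1 left out and 0.312 with MFP 24 h replicate 2 left out. These genes are expressed by hepatocytes too, and the liver median over the same arrays went from -0.66 and -0.72 to 2.97 and 3.51.

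Of 32 growth factors and receptors 4 rose and 0 fell, against 1.71% and 0.407% of all genes: Igf1, Egfr, Fgf1 (2.07 ± 0.36, adjusted p = 0.0137, 0.122 without MFP 12 h replicate 1) and Igfbp2. Of 30 ribosome biogenesis genes 0 changed, and their median difference was 0.43, against -0.05 over all genes. At an unadjusted p under 0.05, 9 of the 30 were upward and 0 downward (7.61% and 6.81% of all genes). Their list median went from -1.12 and -1.25 to -0.68 and -0.80. In that list Nop56, a core protein of nucleolar RNA modification, had the smallest p, at -2.04 and -2.38 and then -1.45 and -1.15 (0.91 ± 0.23, adjusted p = 0.0784). Of 21 nucleotide and one-carbon genes Mthfd1 rose (1.17 ± 0.26, adjusted p = 0.0469), a call lost in 3 of the 4 fits with 1 array left out (highest adjusted p = 0.308). Of 29 involution and acute phase genes 4 rose and 1 fell, against 1.71% and 0.407% of all genes. Saa1, Orm1, Hpx and Fgl1, all products of the liver, rose. Il13ra1, a receptor chain for IL-13, fell (-1.06 ± 0.21, limma adjusted p = 0.024). The Il13ra1 call did not hold in every fit with 1 array left out. How much of the rises of Fgf1, Igfbp2 and Mthfd1 came with the liver transcripts was not tested.

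Genes of the tumour stroma stood higher at 24 h without passing the test. Of 31 fibroblast and collagen matrix genes 0 changed, but 17 had an unadjusted p under 0.05 upward (7.61% of all genes), 28 had both 24 h arrays above both 12 h arrays (20.3% of all genes), and the median was 0.92. The list median went from -0.19 and -0.09 to 0.86 and 0.68, and was 1.63 and 1.81 by 48 h. Postn, a matrix protein of activated fibroblasts, was closest to a call, at 0.78 and 0.91 and then 1.85 and 2.06 (1.11 ± 0.25, adjusted p = 0.0567). Of 28 macrophage genes 0 changed, and 10 had an unadjusted p under 0.05 upward (7.61% of all genes). The median was 0.98, against -0.05 over all genes. Adgre1, the marker F4/80, was at 0.16 and 0.18, then 1.55 and 1.5, then 2.46 and 2.26 (1.36 ± 0.40 for the step, adjusted p = 0.143). Cd68 was at 0.28 and 0.17, then 0.92 and 1.57, then 2.57 and 2.71. In both lists the 24 h arrays lay between those of 12 h and 48 h.

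Of 25 endothelial and pericyte genes Prox1, a regulator of lymphatic endothelium that hepatocytes also express, rose (1.80 ± 0.30, adjusted p = 0.0111, at most 0.126 with 1 array left out), and fell again by 48 h (-1.77 ± 0.30; adjusted p = 0.0138, 0.0993 without MFP 24 h replicate 2). Of 12 adipocyte genes Thrsp, a factor of fat synthesis, rose (3.38 ± 0.47, adjusted p = 0.0035) and fell again by 48 h (-3.31 ± 0.47). How much of this rise came with the liver transcripts was not tested. Over all genes 1.71% rose from 12 h to 24 h. Of 23 luminal epithelial genes 0 changed, with a median of -0.23 against -0.05 over all genes. At an unadjusted p under 0.05, 6 of the 23 were downward and 0 upward (6.81% and 7.61% of all genes). Epcam, the epithelial adhesion molecule, was at 0.48 and 0.10 and then at -0.50 and -0.55 (-0.82 ± 0.21, adjusted p = 0.0821), and the keratin gene Krt8 was at 0.62 and 0.46 and then at 0.51 and 0.37, which overlap. Of 18 basal and myoepithelial genes Egfr alone changed.

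At an unadjusted p under 0.05, 7.61% of all genes were upward from 12 h to 24 h and 6.81% downward. In the remaining lists 0 genes passed. These were interferon-stimulated (38 genes, 2 upward at an unadjusted p under 0.05), MHC class I and II (15 genes), neutrophil (16), T and NK cells (22), B and plasma cells (15), chemokines and cytokines (30, with 10 upward and 1 downward unadjusted), G1 cyclins and inhibitors (20), immediate early (28), ATF4 and ER stress (28, with 6 upward and 1 downward unadjusted), heat shock (16), ribosomal proteins (13), milk and secretory (20), lysosome and autophagy (26) and the circadian clock (21). The clock genes are given because tumours taken 12 h apart can differ in time of day. Its members had 2 upward and 2 downward differences at an unadjusted p under 0.05, against 7.61% and 6.81% of all genes. Per1 was at 0.01 and 0.12 and then at -0.20 and -0.26 (-0.30 ± 0.23), Dbp at 1.11 and 0.24 and then 1.11 and 1.49 (0.63 ± 0.58), and Arntl at -0.72 and 0.14 and then -1.15 and -1.37 (-0.97 ± 0.54). None of them passed (adjusted p = 0.622, 0.692 and 0.456), and the hour of collection was not tested.

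The step was also set against its neighbours. The 12 h to 24 h step lay above the 6 h to 12 h step for 80 genes (0.44% of those tested) and below it for 0 (4.61% and 3.41% at an unadjusted p under 0.05), and 27 of the 80 were liver genes. Without either 12 h array in turn the count was 0, without MFP 24 h replicate 1 it was 217 and without MFP 24 h replicate 2 it was 35. The 24 h to 48 h step lay below the 12 h to 24 h step for 299 genes (1.64%), 78 of them liver genes, and above it for 41 (0.225%), 10 of them of the mitosis list. Without MFP 24 h replicate 2 the total of 340 (1.87%) was 181. Hmmr was such a mitotic gene: it fell by 2.54 and then rose by 1.74 (adjusted p = 0.0479, up to 0.21 with 1 array left out), a difference between the steps of 4.29 (adjusted p = 0.0059). Of the 52 mitosis genes 3 rose from 24 h to 48 h (0.583% of all genes). Both neighbouring steps share arrays with the step itself, 12 h with the first and 24 h with the second. An array low or high for any reason thus enters both differences with opposite sign. The liver genes were set apart for their high values in both 24 h arrays, so their counts here describe them and are no test.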

How the data were processed

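RNA of C4-HD tumours was hybridised to Affymetrix mouse genome arrays (2 per group, 200 ng RNA per labelling). Per the submitters' processing notes the authors used GCRMA (version not given in the sources used here). What they deposited are log2 ratios: for 45099 of 45101 probe sets the linear MPA values average 1 within 0.0001. GCRMA and the scaling to MPA remove the level above background, so no filter on low values was made. Of the probe sets 34945 have a single symbol in the platform annotation, 932 several and 9160 none here, besides 64 controls. Where a gene had several, the one varying most (SD) over the 8 arrays outside the comparison stood for it, so that the choice does not use the contrast. The array cannot separate near-identical family members.

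Tests used limma 3.58.1 in R 4.3.3 with a mean for each of 6 groups over 12 arrays, and eBayes (degrees of freedom: 6 residual, 4.20 prior). Adjustment was by Benjamini-Hochberg over 18193 genes, at 0.05. The ± values are standard errors of this fit with n = 2 arrays per group. The scripts were tested on simulated data. The 41 gene lists (1006 of 1090 members measured, 84 not analysed here) and the comparison itself were chosen with earlier results of these data known. Named genes are the 10 largest rises and falls that passed with arrays apart, outside the lists of other organs, up to 3 passing members per list and direction or else the member of smallest p, the 6 largest liver rises, and 13 genes named in any case. Others are said to be chosen after their values were seen, or are list members given as examples with their values. Alternatives varied the probe set, arrays, weights, shrinkage, centring, filter and the genes of other organs.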

Additional observations from a re-analysis of the deposited data

Results flagged for a closer look

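The 12 h to 24 h step differed from the 6 h to 12 h step for 80 genes by a test of the difference itself (limma, adjusted p under 0.05), all 80 in the direction of a larger value in the later step. Of these, 27 are in the liver list. The 24 h to 48 h step differed from the 12 h to 24 h step for 340 genes, 299 below and 41 above. There were 78 liver genes among the former and 10 mitosis genes among the latter. The liver genes were set apart because they stood high in both 24 h arrays. The counts of 27 and 78 therefore describe them and are no test. Groups of 2 arrays are too small to single out an outlying array by its gap to the others.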

How the results depend on the processing

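Against 385 changed genes (311 rises, 74 falls), quantile normalization of all arrays gave 2 (1 and 1), a 50.0% share of rises against 80.8%. This setting gives each array the mean distribution of all 12, among which the SD over probe sets ran from 0.26 to 0.74. Quantile normalization of the 10 arrays other than MPA, chosen after seeing the data, gave 360. With the liver median as a covariate 0 genes passed in limma (1261 at an unadjusted p under 0.05, against 2623). Without the lists of other organs and the genes following the liver median, chosen after seeing the data, 175 passed (130 and 45). The mean of a gene's probe sets gave 135 falls and the 4 arrays alone 43. With 1 array left out there were 153 to 680 changed genes, 134 to 549 rises and 18 to 131 falls.

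Steps that differed from the step before (80) numbered 140 without the MPA arrays, 188 with array weights, 0 after quantile normalization, 43 without other-organ lists, 0 with the liver covariate, 0 also without the genes following the liver, and 0 to 217 with 1 array left out. At an unadjusted p under 0.05 these limma fits with 0 held 824, 1013 and 1250 genes, and 1121 and 967 without either 12 h array, against 1460. Steps that differed from the step after (340) numbered 4 after quantile normalization, 0 with the liver covariate (1015 unadjusted, against 1619), 139 without other-organ genes and liver followers, and 181 to 474 with 1 array left out. Neither can be had from the 4 arrays alone. The causes were not tested.

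Under the liver covariate, which is high in the 24 h arrays only and so shares most of the contrast, 11 of 42 named genes changed sign: Mug1 (-2.89), Ugt3a2 (-1.05), Slc27a2 (-2.89), Akr1c6 (-0.33), Saa1 (-2.70), Cyp2c50 (-0.18), Ces1d (-0.51), Thrsp (-0.19), Orm1 (-1.95), P2rx7 (0.56) and Higd1a (0.44). Under the other alternatives 0 named genes that passed changed sign, and array weights and median centring kept all 49. Quantile normalization of all arrays kept 1 of the 49 calls, that of Aurkb, robust eBayes 46, and the 4 arrays alone 38, losing Esr1, Pgrmc1, Ddit4, Klf15, Idi1, Fgf1, Il13ra1, Prox1, Apoa4, Anpep and Mthfd1. Each fit with 1 array left out kept 19 to 43. The mitosis list had 10 to 18 falls under the other alternatives with all arrays in the comparison, except 1 after quantile normalization of all arrays and 0 with the liver covariate, and 8 after that of the 10 arrays.

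No paired analysis was possible because the labels give no replicate numbers. Signal over background is unknown, and 2 arrays per group limit every value.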
